A study of Mus musculus with 9 samples.

Results

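The miR-23/27/24 clusters are 2 paralogous groups of microRNA (miRNA) genes, and this account covers 10 of the 1155 miRNA rows in a count table of mouse colon. They are mmu-miR-23a-3p, mmu-miR-27a-3p, mmu-miR-27a-5p and mmu-miR-24-2-5p of the a cluster, mmu-miR-23b-3p, mmu-miR-27b-3p and mmu-miR-24-1-5p of the b cluster, mmu-miR-24-3p, which both clusters make, and mmu-miR-3074-5p and mmu-miR-3074-2-3p, annotated opposite to miR-24. The prefix mmu, for mouse, is left out below. The rows were chosen by name, and all 10 were in the table and passed the low-count filter. Small RNAs were sequenced from the colon of wild-type C57BL/6J mice in 3 groups of 3 samples. DSS_RJA mice drank 2.5% (w/v) dextran sulfate sodium (DSS), a polymer that damages the lining of the colon, and were given royal jelly acid (RJA) by daily gavage, 10 mg/kg in 0.2 mL. DSS mice drank 2.5% DSS alone, and Control mice had plain water. All groups ate a normal diet. No gavage is recorded for DSS or Control mice, so RJA and gavage cannot be told apart. The labels do not name the animal behind each sample or its age, so each p-value speaks only of the variation among these samples, part of which may be technical.

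miRNAs guide silencing complexes to messenger RNAs through their seed, bases 2 to 8, and lower the output of the targets. Each cluster is transcribed as 1 primary RNA that holds a miR-23, a miR-27 and a miR-24 hairpin, so that the members of a cluster share a promoter and can still differ in processing and decay. Vertebrate miR-27 is known for repressing lipid and adipocyte regulators, and miR-23 and miR-27 for effects on vessel growth in mice. In mouse T cells the clusters restrain type 2 cytokine production. In the annotation of GRCm38 the a cluster (Mir23a, Mir27a and Mir24-2) spanned 404 bases of the plus strand of chromosome 8, from 84208518 to 84208921. It lay outside protein-coding genes. Only the 3′ end of Mir24-2 overlapped the start of the long noncoding RNA Gm26532, on the same strand. The b cluster (Mir23b, Mir27b and Mir24-1) spanned 792 bases of the plus strand of chromosome 13, from 63300484 to 63301275. It lay inside the protein-coding gene 2010111I01Rik, transcribed in the same direction, and within an intron of Fancc, transcribed in the other. Mir23b was intronic, while Mir27b and Mir24-1 overlapped an exon of at least 1 annotated 2010111I01Rik transcript.

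The mature sequences below are from RefSeq (GRCm38.p6), which matched 9 of the 10 members. miR-23b-3p is named only. They are shown because the seed defines which members can share targets, and capitals mark bases 2 to 8.
miR-23a-3p: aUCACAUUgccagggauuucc
miR-27a-3p: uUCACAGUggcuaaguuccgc
miR-27b-3p: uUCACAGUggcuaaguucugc
miR-24-3p: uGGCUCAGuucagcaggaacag
miR-27a-3p and miR-27b-3p have the same seed and differ by 1 base in 21, C19U counted from the 5′ end of miR-27a-3p, outside the seed. miR-24-3p is the same molecule from Mir24-1 and Mir24-2, so its reads cannot be divided between the clusters. The opposite arms of the miR-24 hairpins do differ. Below, capitals mark the bases after the 16 that they share.
miR-24-2-5p: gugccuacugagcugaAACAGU
miR-24-1-5p: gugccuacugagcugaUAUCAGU

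The miR-3074 hairpins lie on the minus strand opposite to the miR-24 hairpins. Capitals mark the 20 bases of each mature sequence that a member on the other strand covers at the same positions of chromosome 8, 84208875 to 84208894 for the first pair and 84208839 to 84208858 for the second. Mir24-1 and Mir3074-1 on chromosome 13 give the first pair as well, over 63301251 to 63301270.
miR-24-3p: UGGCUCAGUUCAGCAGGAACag
miR-3074-5p: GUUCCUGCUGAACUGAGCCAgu
miR-24-2-5p: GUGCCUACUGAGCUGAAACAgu
miR-3074-2-3p: UGUUUCAGCUCAGUAGGCAC
The capital stretches of a pair are reverse complements of each other, and the deposited counts of a pair were almost the same. miR-3074-5p had 36243, 31706 and 35833 reads in the DSS_RJA libraries, 42545, 35716 and 45256 in DSS and 38669, 40512 and 29372 in Control. miR-24-3p had 36276, 31746 and 35847 reads in DSS_RJA, 42592, 35752 and 45290 in DSS and 38702, 40555 and 29412 in Control. The miR-3074-5p row was thus lower than the miR-24-3p row by 14 to 47 reads in each of the 9 libraries, at 99.86% to 99.96% of it.

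miR-3074-2-3p held 98.9% to 99.8% of the miR-24-2-5p count and was lower by 3 to 14 reads in every library. The scarcer miR-3074-1-3p, opposite to miR-24-1-5p, held 77.8% to 97.3% of its count and was also lower in all 9. In the whole table, 12 pairs of rows agreed within 2% in every library with at least 20 reads in each. For 6 of them RefSeq held both mature sequences, and all 6 of these pairs lay on opposite strands. Without a stated strand rule in the counting, reads from miR-24 and from miR-3074 cannot be told apart in these rows, so the miR-3074 rows are given below as repeats of miR-24 and not as separate measurements.

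Library totals were 5985153 to 8280980 counts, of which the smooth muscle miRNA miR-143-3p took 66.4% to 75.5%. Without the miR-3074 rows the members took 1.14% to 1.41%. Levels below are in CPM, each count as a share of its library, with library sizes scaled by the trimmed mean of M-values (TMM). All 10 epithelial miRNAs listed as colon markers, such as miR-192-5p and the miR-200 family, were in the table and none was at 0 in all libraries. Their summed level was 96273, 50049 and 9458 CPM in DSS_RJA 1, 2 and 3, against 7955, 35786 and 11620 CPM in DSS 1, 2 and 3 and 92509 to 113541 CPM in Control. DSS_RJA 3 was therefore as low as DSS 1 and 3 in these markers. DSS 2 lay above these, and DSS_RJA 2 was closer to DSS 2 than to DSS_RJA 1.

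The members covered a wide range of levels, and miR-24-3p and miR-27b-3p were the most abundant. A read spans a whole mature miRNA, so that levels need no length term, but ligation and PCR favour some sequences over others. Over the 9 libraries the mean levels were 5396 CPM for miR-24-3p, 4930 for miR-27b-3p, 1124 for miR-23a-3p, 647 for miR-23b-3p, 360.3 for miR-27a-3p, 184 for miR-24-2-5p, 82.2 for miR-27a-5p and 8.39 for miR-24-1-5p. Only the first 2 neighbours in that order overlapped in range, from 4805 to 6806 CPM for miR-24-3p and from 2989 to 6674 CPM for miR-27b-3p. The other arms of these hairpins were scarce. miR-27b-5p had 96 to 165 reads, and miR-23a-5p and miR-23b-5p, at 0 to 3 and 0 to 7 reads, were too low to test.

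**Figure D1:**
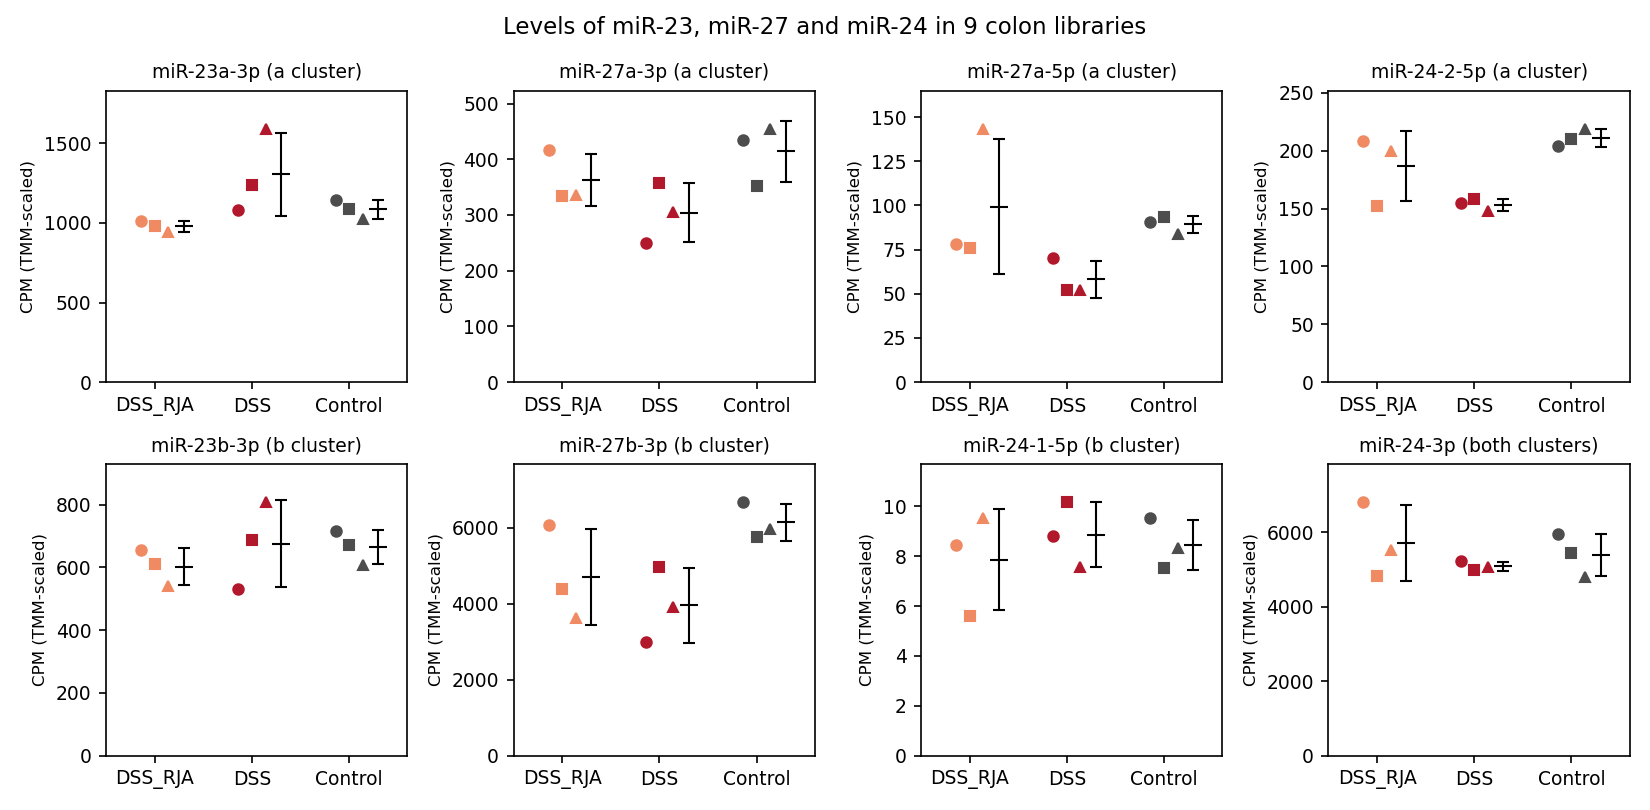
Level of 8 members in CPM on TMM-scaled library sizes (vertical axis, from 0) in DSS_RJA, DSS and Control. Points are libraries (circle, square and triangle for samples 1, 2 and 3), and the bar is mean ± SD (n = 3). On this scale miR-27b-3p, miR-27a-5p and miR-24-2-5p lie lower in all 3 DSS libraries than in all 3 Control libraries. As a share of total counts only miR-24-2-5p of these does.

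The first question was how the clusters differed between DSS and untreated colon. The miR-27 members and the 5p arm of miR-24-2 had lower values in DSS and the miR-23 members did not, but no difference passed. In edgeR's quasi-likelihood test 0 of the 10 members had an adjusted p under 0.05, where 3.93% of the 433 miRNAs tested did. DESeq2 and limma-voom also called 0 of the 10, where they called 65 and 38 of the 433. At an unadjusted p under 0.05 there were 5 members, 4 of them without the miR-3074 repeats, against 33% of all tested. The median log2 fold change of the 8 members other than miR-3074 was -0.26, with 3 positive and 5 negative values, against 0.01 over all tested miRNAs.

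miR-27b-3p was at 2989, 4953 and 3922 CPM in DSS 1, 2 and 3, against 6674, 5759 and 5977 CPM in Control. On this scale every DSS library lay below every Control library. As a share of total counts the groups overlapped, with DSS 2 (35554 of 6453813) above Control 2 (42959 of 8280980). The log2 fold change was -0.63 ± 0.24 (standard error), with a 95% interval of -1.17 to -0.09 and an edgeR adjusted p of 0.110. miR-27a-3p, which has the same seed, was at 250, 357 and 306 CPM in DSS and 435, 352 and 455 CPM in Control, so that DSS 2 and Control 2 overlapped. Its log2 fold change was -0.44 ± 0.19 (edgeR adjusted p = 0.143).

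miR-27a-5p, the other arm of the same hairpin, was at 70.3, 52.4 and 52.1 CPM in DSS and 90.4, 93.4 and 83.8 CPM in Control, without overlap. As a share of total counts its groups overlapped, with DSS 1 (574 of 7330731) above Control 3 (513 of 7057285). The log2 fold change was -0.61 ± 0.26 (edgeR adjusted p = 0.134). With DSS and Control libraries alone in the fit it passed, at -0.59 (edgeR adjusted p = 0.0461), and likewise without DSS_RJA 3, at -0.58 (edgeR adjusted p = 0.0362). miR-24-2-5p was at 155, 158 and 148 CPM in DSS and 204, 211 and 219 CPM in Control, also without overlap. Its log2 fold change was -0.46 ± 0.16 (edgeR adjusted p = 0.0976), and -0.44 with DSS and Control alone, where it passed (edgeR adjusted p = 0.0460). Over all alternative settings the value ranged from -0.46 to -0.09 for miR-24-2-5p and from -0.76 to -0.25 for miR-27a-5p. The repeat miR-3074-2-3p gave -0.46 ± 0.16. In all, 3 of the 8 members other than miR-3074 had groups that did not overlap in TMM-scaled CPM, all 3 of them lower in DSS. Of all tested miRNAs 41.6% did not overlap on that scale, 18.9% higher and 22.6% lower in DSS. As a share of total counts only miR-24-2-5p of these 3 did not overlap.

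The miR-23 members and miR-24-3p had small differences of either sign. miR-23a-3p was at 1080, 1242 and 1593 CPM in DSS and 1147, 1085 and 1025 CPM in Control, with DSS 1 inside the Control range. The log2 fold change was 0.27 ± 0.18 (edgeR adjusted p = 0.351), and 0.11 without DSS 3. miR-23b-3p was at 531, 688 and 808 CPM in DSS and 715, 671 and 606 CPM in Control, with a log2 fold change of 0.02 ± 0.19 that was -0.11 without DSS 3. miR-24-3p was at 5219, 4981 and 5050 CPM in DSS and 5937, 5437 and 4805 CPM in Control, with a log2 fold change of -0.09 ± 0.18 (95% interval -0.48 to 0.31), which turned to 0.29 with scaling by total counts alone and to 0.031 without Control 1. miR-24-1-5p, on 68 to 73 reads in DSS and 51 to 62 in Control, had a value of 0.07 ± 0.25, and -0.0088 without DSS 2.

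Scaling by total counts alone moved the median over all tested miRNAs from 0.01 to 0.39 in this comparison. On that scale miR-23a-3p, at 0.64, passed (edgeR adjusted p = 0.0475), and miR-27b-3p was at -0.26 and miR-27a-3p at -0.07. miR-27b-3p and miR-27a-3p lay below the median of all miRNAs under both scalings, and miR-23a-3p lay above it.

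The second question was how the members differed when RJA was given with DSS. None passed in edgeR, DESeq2 or limma-voom, where edgeR called 0.231% of all tested miRNAs, DESeq2 15 of them and limma-voom 0. At an unadjusted p under 0.05 there were 2 of the 10 members, miR-27a-5p and miR-23a-3p, against 14.1% of all tested. The same 2 had groups that did not overlap in TMM-scaled CPM, miR-27a-5p higher and miR-23a-3p lower in DSS_RJA. Of all tested, 13.2% did not overlap, 6% higher and 7.16% lower. As a share of total counts miR-27a-5p overlapped, with DSS_RJA 1 (418 of 5985153) below DSS 1 (574 of 7330731), and miR-23a-3p did not. Scaling by total counts alone moved the median of all tested miRNAs from 0.02 to -0.16. The DSS libraries serve in this comparison and in the first, so the values of the 2 are not independent of each other.

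miR-27a-5p was at 78.4, 75.8 and 143.5 CPM in DSS_RJA, against 70.3, 52.4 and 52.1 CPM in DSS. DSS_RJA 3 was the highest of all 9 libraries. The log2 fold change was 0.77 ± 0.26 (edgeR adjusted p = 0.223), and 0.39 without DSS_RJA 3. miR-23a-3p was at 1014, 981 and 945 CPM in DSS_RJA and 1080, 1242 and 1593 CPM in DSS, with a log2 fold change of -0.41 ± 0.18 (edgeR adjusted p = 0.328), and -0.24 without DSS 3. The other members overlapped.

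miR-27b-3p was at 6081, 4390 and 3625 CPM in DSS_RJA and 2989, 4953 and 3922 CPM in DSS. Its log2 fold change of 0.25 ± 0.24 was 0.0040 without DSS_RJA 1 and 0.08 without DSS 1. The values were 0.25 ± 0.19 for miR-27a-3p, 0.29 ± 0.16 for miR-24-2-5p and -0.17 ± 0.19 for miR-23b-3p. The value of miR-23b-3p was -0.018 without DSS 3 and -0.32 without DSS 1, and leaving out 1 library gave 0.12 to 0.34 for miR-27a-3p and 0.18 to 0.40 for miR-24-2-5p. For miR-24-3p the value was 0.17 ± 0.18, -0.026 with total counts alone and 0.0012 without DSS_RJA 1. For miR-24-1-5p it was -0.17 ± 0.25, and 0.015 without DSS_RJA 2.

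The third question was what differed from untreated colon when RJA was given with DSS. edgeR called 0 of the 433 miRNAs here (0% of those tested, 62 at an unadjusted p under 0.05, 2 with DESeq2 and 0 with limma-voom) and none of the members. At an unadjusted p under 0.05 there were 0 of the 10 members, against 14.3% of all tested. miR-23a-3p was at 1014, 981 and 945 CPM in DSS_RJA and 1147, 1085 and 1025 CPM in Control. It was the only member whose groups did not overlap in TMM-scaled CPM, lower in DSS_RJA. Of all tested, 21.7% did not overlap, 10.2% higher and 11.5% lower. As a share of total counts miR-23a-3p overlapped, with DSS_RJA 2 (6469 of 6167263) above Control 1 (7475 of 7514959). Its log2 fold change was -0.15 ± 0.18, and 0.044 with total counts alone, which moved the median of all miRNAs from 0.03 to 0.22. miR-27b-3p was at 6081, 4390 and 3625 CPM in DSS_RJA and 6674, 5759 and 5977 CPM in Control. DSS_RJA 1 lay inside the Control range and the other 2 below it, with a log2 fold change of -0.39 ± 0.24, which was -0.59 without DSS_RJA 1 and -0.22 without DSS_RJA 3. The remaining members had values from -0.19 (miR-27a-3p) to 0.15 (miR-27a-5p), and the last of these was -0.19 without DSS_RJA 3. miR-24-3p, at 0.08 ± 0.18, was -0.039 without DSS_RJA 1.

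**Figure D2:**
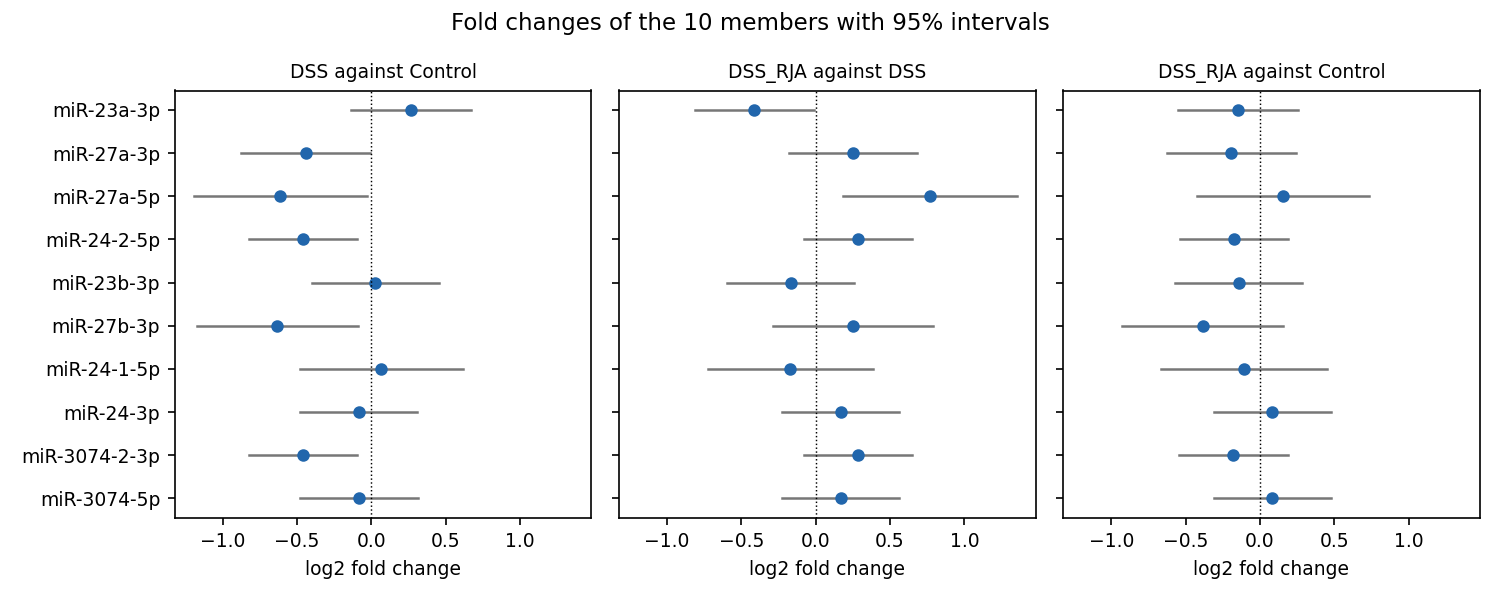
log2 fold change (horizontal axis) of the 10 members in the 3 comparisons, from edgeR, with approximate 95% intervals as lines and 0 as the dotted line. miR-27b-3p, at -0.63, has the lowest value in DSS against Control, and the miR-3074 points repeat those of miR-24-3p and miR-24-2-5p.

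The a and b clusters were then compared inside each library, where library scaling cancels. A ratio of different sequences carries the ligation bias of both, so its change between groups can be read and its level cannot be taken as a ratio of molecules. miR-23a-3p was counted 1.55 to 2.03 times as often as miR-23b-3p and miR-24-2-5p 15.4 to 27.8 times as often as miR-24-1-5p, while miR-27b-3p was counted 10.8 to 16.4 times as often as miR-27a-3p.

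The miR-23a-3p to miR-23b-3p ratio was higher in DSS than in the other groups. It was 1.55, 1.61 and 1.75 in DSS_RJA 1, 2 and 3, 2.03, 1.81 and 1.97 in DSS and 1.60, 1.62 and 1.69 in Control. All 3 DSS libraries lay above the other 6. The means were 1.63 ± 0.105 in DSS_RJA, 1.94 ± 0.118 in DSS and 1.64 ± 0.0476 in Control (SD, n = 3), and the mean log2 ratio differed by 0.24 for DSS minus Control and by -0.25 for DSS_RJA minus DSS. The spread of the 3 group means gave p = 0.0321 (two-sided exact permutation test), which was 0.0964 after Benjamini-Hochberg adjustment over the 6 planned ratios. Of these, 2 set a miR-3074 row against the miR-24 row that it repeats and could hardly differ between groups, and over the other 4 alone, a choice made after the data were seen, the adjusted value was 0.0643. With 3 against 3 libraries the smallest p such a test allows is 0.1, so pairs of groups were not tested. The p was 0.0679 without DSS 1 or DSS 3, 0.0571 without Control 1 or Control 2, 0.0643 without DSS_RJA 2 and 0.050 without DSS_RJA 1, and it stayed under 0.05 when any of the other 3 libraries was left out. DSS_RJA 3, with epithelial markers at the level of DSS 1 and 3, had a ratio of 1.75, just below the 1.81 of DSS 2. How multiply matching reads were treated was not given, and whether the miR-23a-3p and miR-23b-3p rows share reads was not tested.

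The miR-24-2-5p to miR-24-1-5p ratio went the other way, with the miR-24 5p arm of the a cluster lower relative to that of the b cluster in DSS. It was 24.4, 26.9 and 20.8 in DSS_RJA, 17.4, 15.4 and 19.4 in DSS and 21.3, 27.8 and 26.1 in Control. All 3 DSS libraries lay below the other 6. The mean log2 ratio differed by -0.52 for DSS minus Control and by 0.46 for DSS_RJA minus DSS, with p = 0.0321 over the 3 groups (two-sided exact permutation test, 0.0964 adjusted over 6 ratios and 0.0643 over 4). Leaving out 1 library gave p of 0.0179 to 0.136, under 0.05 in 4 of 9 cases. The p was over 0.05 without DSS 1, DSS 2, DSS_RJA 1, Control 2 or Control 3, and highest without DSS 2. miR-24-1-5p rested on 37 to 73 reads, so that counting error alone was 0.17 to 0.24 on the log2 scale in each library.

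The miR-27a-3p to miR-27b-3p ratio overlapped between all groups. It was 0.0685, 0.0763 and 0.0928 in DSS_RJA, 0.0836, 0.0721 and 0.0781 in DSS and 0.0652, 0.0611 and 0.0762 in Control (p = 0.293, exact permutation test, 0.586 adjusted). How reads of these 2 sequences, which differ by 1 base in 21, were assigned was not given. The arms of Mir27a did not differ detectably between groups. The miR-27a-5p to miR-27a-3p ratio was 0.189, 0.227 and 0.427 in DSS_RJA, 0.282, 0.147 and 0.170 in DSS and 0.208, 0.266 and 0.184 in Control (p = 0.557, exact permutation test, 0.768 adjusted), and DSS_RJA 3 was again the highest. In that library miR-27a-5p was high while miR-27a-3p, at 336 CPM, was close to the 335 CPM of DSS_RJA 2.

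**Figure D3:**
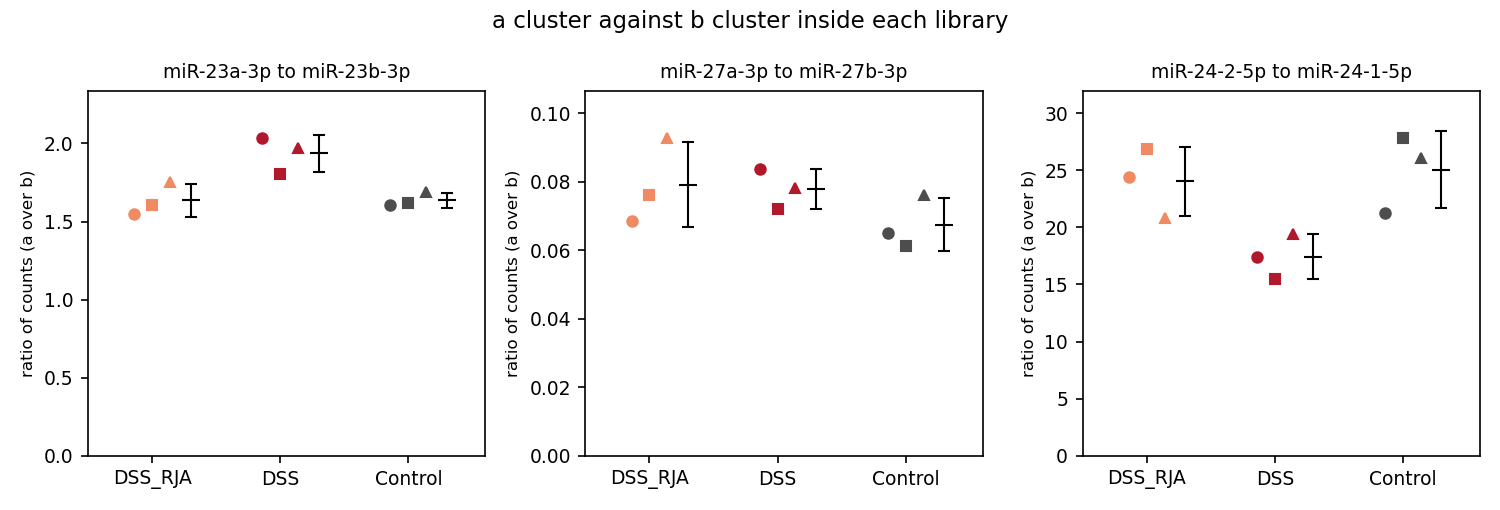
Ratio of raw counts plus 0.5, a cluster over b cluster (vertical axis, from 0), in each library of DSS_RJA, DSS and Control. Points are libraries (circle, square and triangle for samples 1, 2 and 3) and the bar is mean ± SD (n = 3). The 3 DSS points lie above all others for miR-23 and below all others for miR-24 5p arms, and the groups overlap for miR-27.

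Ratios between other pairs of members were also taken inside each library. The 9 ratios of this kind were chosen after the values were seen and are given without a test. Those over miR-24-3p are not proportions within 1 cluster, as both clusters make miR-24-3p. In DSS against Control 4 of the 9 did not overlap. The 5 that did were miR-27b-5p over miR-27b-3p and each of miR-24-1-5p, miR-23a-3p, miR-23b-3p and miR-27a-3p over miR-24-3p. Without overlap were 2 of the 9 in DSS_RJA against DSS and 1 of the 9 in DSS_RJA against Control. In CPM, 41.6%, 13.2% and 21.7% of all tested miRNAs did not overlap in these 3 comparisons. Of the 4 ratios in DSS against Control, the values of 3 follow. The fourth, miR-24-2-5p over miR-24-3p, was lower in every DSS library than in every Control library. miR-23a-3p over miR-27a-3p was 2.44, 2.93 and 2.81 in DSS_RJA, 4.32, 3.48 and 5.20 in DSS and 2.64, 3.08 and 2.25 in Control. miR-23b-3p over miR-27b-3p, the same pair in the b cluster, was 0.108, 0.139 and 0.149 in DSS_RJA, 0.178, 0.139 and 0.206 in DSS and 0.107, 0.117 and 0.101 in Control. For both of these pairs every DSS library lay above every Control library, and the group means of the log2 ratio differed by 0.70 in the a cluster and 0.67 in the b cluster. DSS_RJA lay below DSS without overlap in the a cluster, while in the b cluster DSS_RJA 2 and DSS_RJA 3 lay above DSS 2.

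miR-27b-3p over miR-24-3p was 0.893, 0.912 and 0.658 in DSS_RJA, 0.573, 0.994 and 0.777 in DSS and 1.12, 1.06 and 1.24 in Control. The ratio was higher in each of the 3 Control libraries than in each of the 6 libraries from mice given DSS.

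**Figure D4:**
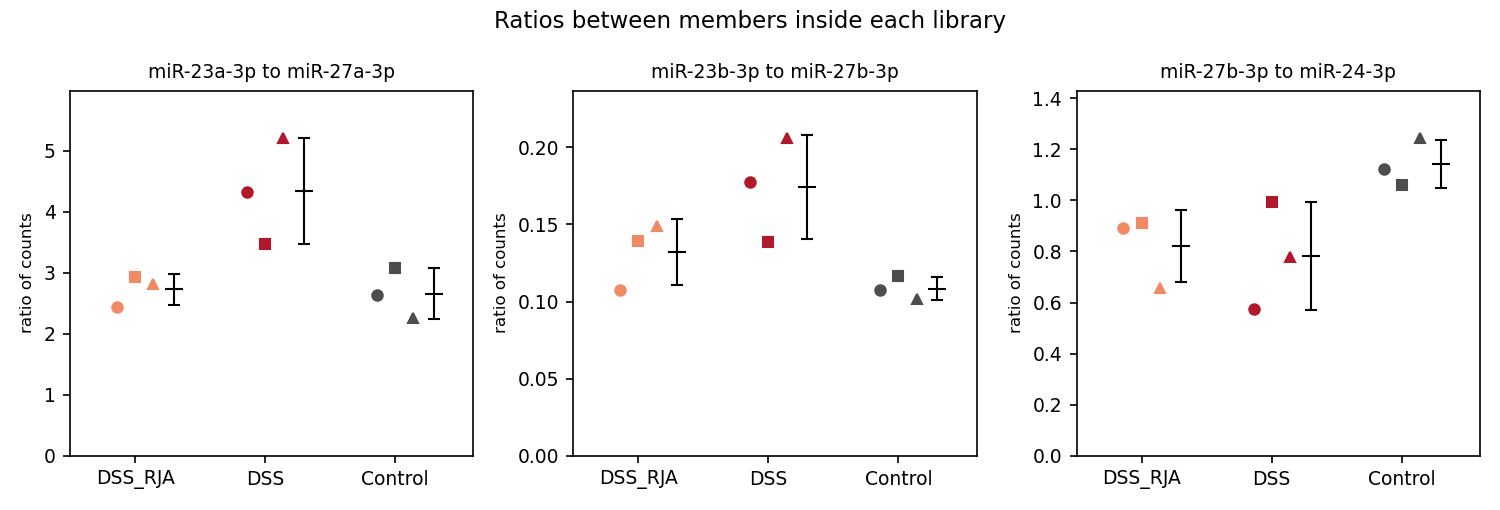
Ratio of raw counts plus 0.5 between members (vertical axis, from 0) in each library of DSS_RJA, DSS and Control. Points are libraries (circle, square and triangle for samples 1, 2 and 3) and the bar is mean ± SD (n = 3). miR-23 over miR-27 is higher in DSS than in Control in both clusters, and miR-27b-3p over miR-24-3p is higher in the 3 Control libraries than in the other 6.

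Across the 9 libraries, which share groups and scaling, the values of miR-27a-3p and miR-27b-3p ran closer to each other than to the miR-23 of their own cluster. As a description, log2 CPM of miR-27a-3p and miR-27b-3p had a Pearson r of 0.91, and that of miR-23a-3p and miR-23b-3p an r of 0.80. miR-27a-3p and miR-27b-3p differ by 1 base in 21, and the treatment of multiply matching reads was not given. Whether these 2 rows share reads, or the miR-23a-3p and miR-23b-3p rows do, was not tested. Within a cluster r was -0.23 for miR-23a-3p and miR-27a-3p and 0.46 for miR-23b-3p and miR-27b-3p. Among 233 other miRNAs with a mean of at least 10 CPM, those most like miR-27b-3p were miR-215-5p (r = 0.96), miR-192-5p (r = 0.96) and miR-196a-1-3p (r = 0.95), of which the first 2 are in the epithelial list. Those most like miR-27a-3p were miR-378c (r = 0.90), miR-215-5p (r = 0.90) and miR-1843a-5p (r = 0.87). For miR-23a-3p they were miR-195a-3p (r = 0.85), miR-181a-5p (r = 0.85) and let-7a-5p (r = 0.82), for miR-23b-3p the miR-486 rows miR-486a-3p, miR-486b-3p and miR-486a-5p (r = 0.90 each), which nearly repeat each other's counts, and for miR-24-3p miR-145a-3p (r = 0.71), miR-1843b-5p (r = 0.65) and miR-340-3p (r = 0.63).

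Markers of several cell types differed between the groups as well. All 10 epithelial miRNAs had lower values in DSS than in Control, with a median log2 fold change of -2.42, and all 10 had higher values in DSS_RJA than in DSS, with a median of 1.29. In DSS against Control edgeR called 0 of these 10, 9 had an unadjusted p under 0.05, and DESeq2 called 8 and limma-voom 3. Of all 433 miRNAs tested, edgeR called 3.93%, 33% had an unadjusted p under 0.05, and DESeq2 called 65 and limma-voom 38. In DSS_RJA against DSS edgeR called 0 of the 10, 3 had an unadjusted p under 0.05, and DESeq2 called 1 and limma-voom 0. Of all tested, edgeR called 0.231%, 14.1% had an unadjusted p under 0.05, and DESeq2 called 15 miRNAs and limma-voom 0. The lowest miR-27b-3p levels were in DSS 1, DSS_RJA 3 and DSS 3, at 2989, 3625 and 3922 CPM, and these had the lowest summed epithelial levels too. The lymphocyte list, with 5 of 5 members positive in DSS against Control and 1 of them called by edgeR (3 by DESeq2, 2 by limma-voom), summed to 1138 to 2159 CPM in DSS_RJA, 2337 to 3509 CPM in DSS and 1597 to 1743 CPM in Control.

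In the lists that follow edgeR called 0 members in DSS against Control, where it called 3.93% of all 433 miRNAs tested. Of these 433, 33% had an unadjusted p under 0.05, and DESeq2 called 65 and limma-voom 38. The myeloid and pan-leukocyte list, with 4 of 4 positive (2 at an unadjusted p under 0.05, 2 called by DESeq2, 1 by limma-voom), summed to 43.5 to 208 CPM in DSS_RJA, 109 to 236 CPM in DSS and 50.9 to 87.6 CPM in Control. The endothelial list, with 3 of 4 positive (0 unadjusted, 0 in the other tools), summed to 4037 to 5433 CPM in DSS_RJA, 3289 to 5192 CPM in DSS and 3391 to 3645 CPM in Control. The mesenchymal list, with 5 of 6 positive (3 unadjusted, 0 in the other tools), summed to 1010 to 1667 CPM in DSS_RJA, 1438 to 1730 CPM in DSS and 1122 to 1267 CPM in Control. The smooth muscle list, with 1 of 6 positive (3 unadjusted, 1 called by DESeq2, 0 by limma-voom), summed to 675354 to 782883 CPM in DSS_RJA, 616507 to 651562 CPM in DSS and 776540 to 830381 CPM in Control. These sums depend on the TMM factors, with means of 1.01 in DSS_RJA, 1.14 in DSS and 0.879 in Control. Before TMM scaling, miR-143-3p of this list took 68.7%, 71.1% and 71.8% of the counts in DSS_RJA. It took 68.3%, 67.2% and 75.5% in DSS and 70.9%, 69.3% and 66.4% in Control, which overlapped. The erythrocyte list, with 0 of the 2 tested positive (1 unadjusted, 0 in the other tools), summed to 154 to 183 CPM in DSS_RJA, 159 to 222 CPM in DSS and 211 to 270.4 CPM in Control. No marker of these lists was at 0 in all libraries. Their part in the levels of miR-23, miR-27 and miR-24 was not tested, and in whole colon fewer cells of a type and less RNA per cell cannot be told apart.

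**Figure D5:**
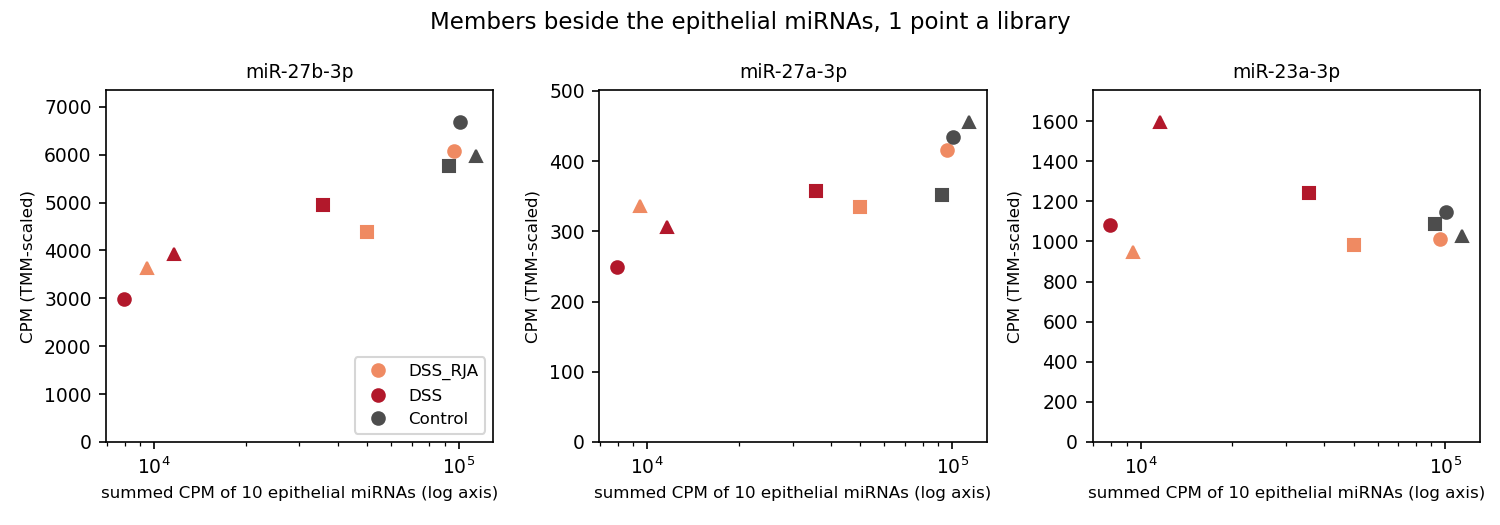
Level of miR-27b-3p, miR-27a-3p and miR-23a-3p in CPM (vertical axis, from 0) against the summed CPM of 10 epithelial miRNAs (horizontal log axis), with 1 point for each of the 9 libraries, coloured by DSS_RJA, DSS and Control and shaped by sample number (circle, square and triangle for 1, 2 and 3). miR-27b-3p is lowest in DSS 1, DSS_RJA 3 and DSS 3, the libraries with the lowest epithelial sums, and miR-23a-3p is highest in DSS 3.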

How the data were processed

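Per the file headers, the table holds, for each sample, a column of unnormalised counts of reads assigned to a mature miRNA and a column of TPM made by the authors. Each deposited TPM value was the count's share of its library total on the TPM scale, within 4.66e-10, and was not used further. Bowtie and DESeq are named in the submitters' processing notes, without a version. The build, the miRNA annotation, the strand rule and the treatment of multiply matching reads were not given in the sources used here. Per the labels' protocols, size-selected inserts were read as single reads.

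Counts were tested with edgeR 4.0.16 in R 4.3.3, fitted to all 9 libraries with 1 mean per group and no covariate, after filterByExpr (minimum count 10) kept 433 of 1155 rows, with TMM scaling and Benjamini-Hochberg adjustment over all 433. Mean TMM factors were 1.01 in DSS_RJA, 1.14 in DSS and 0.879 in Control. Standard errors are the fold change divided by the root of F and are approximate. Ratios used raw counts plus 0.5 and an exact permutation test over the 1680 assignments of libraries to groups, whose smallest p is 0.00357. Alternatives used DESeq2 1.42.0, limma 3.58.1, other scalings and filters, a replicate block and leaving out libraries. Scripts were tested on simulated data. Within groups, the most alike libraries (Control 1 and 2) had a chi-square of 41.9 for each degree of freedom. Counting errors treat each read as a molecule, although no molecular identifiers were used.

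The members and lists were chosen with earlier results of these data known. The text names all 10 members, the other arms of the clusters and the 3 miRNAs most like each of 5 members. Marker lists are given as counts and sums.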

Additional observations from a re-analysis of the deposited data

How the results depend on the processing

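No member changed its call under DESeq2 size factors, no low-count filter, DESeq2, limma-voom, the replicate block, or the table without miR-143-3p or without the miR-3074 rows. The exceptions under other alternatives were in DSS against Control, where miR-23a-3p passed with total counts alone, miR-27a-5p, miR-24-2-5p and miR-3074-2-3p with this pair of groups only, and miR-27a-5p without DSS_RJA 3. In DSS against Control edgeR called 17 miRNAs. The count was 73 with total counts alone (64 higher and 9 lower, against 10 and 7), 73 with no low-count filter, 65 with DESeq2, 38 with limma-voom, 88 with this pair of groups only and 27 without miR-143-3p. In DSS_RJA against DSS, where edgeR called 1, it was 2 with DESeq2 size factors and without miR-143-3p, 40 with no filter, 15 with DESeq2, and 0 with limma-voom and with the pair only. In DSS_RJA against Control, where edgeR called 0, it was 19 with no filter and 2 with DESeq2 and with the pair only. Leaving out 1 library gave 3 (without Control 1) to 90 (without DSS_RJA 3), 0 to 37 (without DSS_RJA 3) and 0 to 1 calls in the 3 comparisons.

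Total counts alone turned the sign of some log2 fold changes. In DSS against Control these were miR-24-3p and miR-3074-5p, at 0.29 each, and in DSS_RJA against DSS the same rows, at -0.026 each. In DSS_RJA against Control they were miR-23a-3p (0.044), miR-23b-3p (0.045), miR-24-1-5p (0.085), miR-24-2-5p (0.0085) and miR-3074-2-3p (0.0057). Leaving out 1 library turned others. In DSS against Control the range was -0.11 to 0.18 for miR-23b-3p, -0.11 to 0.031 for miR-24-3p and miR-3074-5p, and -0.0088 to 0.20 for miR-24-1-5p. In DSS_RJA against DSS it was -0.36 to 0.015 for miR-24-1-5p. In DSS_RJA against Control it was -0.19 to 0.31 for miR-27a-5p, -0.039 to 0.18 for miR-24-3p, -0.038 to 0.18 for miR-3074-5p, and -0.26 to 0.086 for miR-24-1-5p.

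For the DSS minus Control log2 ratios, leaving out 1 library gave 0.21 to 0.29 for miR-23a-3p to miR-23b-3p, -0.64 to -0.44 for miR-24-2-5p to miR-24-1-5p, -0.45 to 0.0151 for miR-27a-5p to miR-27a-3p and -0.0039 to 0.0033 for miR-3074-2-3p to miR-24-2-5p. The exact permutation p of the first 2 crossed 0.05, while their sign held. A pseudocount of 0 or 1 changed no sign of a ratio and moved no unadjusted exact permutation p across 0.05. The cause of these shifts was not tested.

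The labels do not say that a shared sample number marks a batch or day. Same-numbered libraries had correlations of -0.46 to 0.18, over 0.1 in 1 of 9 pairs, and 2 of 9 libraries correlated best with their own number. With the replicate block, edgeR called 4 miRNAs in DSS against Control and 0 in both other comparisons, with no member among them. The 37 to 73 reads of miR-24-1-5p limit its ratio, and 3 libraries a group limit every comparison.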
